A study of Mus musculus with 7 samples.

Results

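The genes described here were 48 genes of the lysosome, made up of acid hydrolases, lysosomal membrane proteins, lipid transfer proteins and 3 transcription factors of the MiT/TFE family. They were taken by symbol from a fixed list, which was chosen with earlier results of these data known. Each of the 48 was found among the 23361 genes of the table and passed the filter on low counts, which left 12858 genes for testing. The values came from macrophages of the regenerative bridge that forms across a cut sciatic nerve, taken from wild-type BALB/cJ mice (an inbred strain). The left sciatic nerve was transected and its stumps were sutured at once into an inert conduit, so that every library came from an injured nerve and none from an intact one. The bridge was digested, and cells that carried F4/80, CD14, CD11b and CD16/32 and lacked a set of exclusion markers, among them Ly6G, Siglec F, CD3e, Ter119 and Thy1.2, were sorted. PolyA+ RNASeq libraries were made at day 5 (3 libraries), day 14 (2 libraries) and day 28 (2 libraries) after repair, and the 3 time points differed in nothing else that the labels give. Neither the age of the mice nor whether a library came from 1 mouse or from several is given in the sources used here, so the p-values measure the spread between these libraries.

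The lysosome is the acidic compartment in which cells break down what they engulf and what they recycle. Its soluble hydrolases are made in the endoplasmic reticulum, tagged with mannose 6-phosphate and carried to the lysosome by mannose 6-phosphate receptors, while a proton pump, the V-ATPase, keeps the lumen acid and heavily glycosylated membrane proteins line its wall. Many of these genes share a short palindrome in their promoters, the E-box core of the CLEAR element, through which TFEB, TFE3 and MITF can raise their transcription together. Macrophages carry large amounts of lysosomal enzymes, and after nerve injury they engulf and digest the myelin and axon debris that has to be cleared before axons regrow.

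The E-box core CACGTG, which reads the same on both strands, was searched for between 250 bases before and 50 bases after the RefSeq start of each gene, as was the longer palindrome TCACGTGA, which contains it. A promoter entry was matched for 43 of the 48 genes, and 14 of the 43 (32.6%) held the core, against 8.09% of all 27025 genes with an entry and 11.6% of the 9554 with an entry among the genes tested. The longer form was in 5 of the 43 (11.6%), against 1.13% of all genes and 2.18% of those tested. A match describes the letters only and is not a measured binding site. The 5 genes with the longer form and 3 further genes whose level differed between days 5 and 28 are shown, since they carry the shared sequence that the MiT/TFE factors are known to bind. Each run is written 5′ to 3′ on the strand of its gene (RefSeq, build GRCm38.p6), with the core, or where present the longer form, in capitals.
Ctsa, chr2:164833757-164833786, plus strand: ctgTCACGTGAtgcagatgcTCACGTGAcc
Ctsd, chr7:142387908-142387937, minus strand: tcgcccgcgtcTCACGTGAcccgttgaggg
Gla, chrX:134601215-134601244, minus strand: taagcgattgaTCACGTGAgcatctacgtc
Mcoln1, chr8:3500462-3500491, plus strand: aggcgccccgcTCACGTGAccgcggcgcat
Cln3, chr7:126583340-126583369, minus strand: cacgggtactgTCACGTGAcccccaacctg
Lamp1, chr8:13159088-13159160, plus strand: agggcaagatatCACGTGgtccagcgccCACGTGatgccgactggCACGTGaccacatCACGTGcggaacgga
Lgmn, chr12:102439124-102439153, minus strand: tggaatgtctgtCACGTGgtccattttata
Ctsf, chr19:4855074-4855103, plus strand: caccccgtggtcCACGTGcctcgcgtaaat
The Lamp1 promoter held 4 cores within the 73 bases before its start. Ctsa held the longer form in 2 copies, one on each side of its start. Ctsd, Gla, Mcoln1 and Cln3 each held 2 cores, only 1 of them within the run shown. Of the genes with an entry, the core was in 1 of the 8 that were higher at day 28 than at day 5 (Ctsf), in 2 of the 8 that were lower (Lamp1 and Lgmn) and in 11 of the 27 that were not called.

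The libraries held 18027190 to 35247116 fragments assigned to genes, and the cells carried the transcripts of their gate. FPKM (fragments scaled to transcript length and library size, a level that can be compared between genes) of Cd14 was 1431 to 3003 and that of Emr1, which encodes F4/80, 195 to 470. These were the 2 of 9 macrophage markers that edgeR called lower at day 28 than at day 5 (log2 fold change -0.76 and -1.01, edgeR adjusted p = 0.0145 and 0.0065). The other gate genes were not called, with log2 fold changes of -0.45 for Itgam (CD11b) and 0.12 and -0.30 for Fcgr3 and Fcgr2b (CD16/32). The 8 fibroblast markers summed to 29.2 to 74.6 FPKM at day 5 and 36.4 and 57.8 at day 28. At day 14 they summed to 224 FPKM in replicate 1 and 82.2 in replicate 2. Of these edgeR called Col1a2 alone, as higher at day 14 than at day 5 (log2 fold change 1.86, edgeR adjusted p = 0.035). The 7 neutrophil markers summed to 530 to 541 FPKM at day 14 against 265 to 295 at day 5 and 120 to 264 at day 28. S100a8 and S100a9, with day 14 means of 190 and 314 FPKM, made up most of the neutrophil sum and were not called. Of the neutrophil markers edgeR called Mmp8 alone, as lower than at day 5 (log2 fold change -1.60 at day 14 and -2.58 at day 28). The 6 endothelial markers summed to 16.2 to 27.9 FPKM at day 5, 8.15 to 14.7 at day 14 and 5.59 to 9.10 at day 28, where Kdr (log2 fold change -3.02) and Pecam1 (-1.80) were called lower. The others were not called and went both ways, with 1.01 for Tie1, 1.66 for Egfl7, -0.09 for Cdh5 and -0.70 for Esam. The 6 dendritic cell markers summed to 8.19 to 13.04 FPKM at day 5 and 19.8 to 30.4 at day 28, where Ccr7 was called higher. The 7 Schwann cell markers, of which Mbp was called higher, summed to 10.8 to 11.8 and 17.99 to 20.1 FPKM at these days. The 7 eosinophil and mast cell markers, of which Siglec5 was called higher, summed to 1.93 to 3.06 and 3.69 to 4.19 FPKM. The part of these cells in the results below was not tested. In sorted bulk samples, fewer cells of a type and less RNA per cell cannot be told apart.

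Lysosomal transcripts were among the most abundant in these macrophages. The 48 genes took 5.10%, 5.08% and 5.24% of all FPKM in the 3 day 5 libraries, 4.95% and 4.81% in the day 14 libraries and 4.67% and 4.69% in the day 28 libraries. The shares did not overlap between the days, and their mean was 5.14% ± 0.0897 (SD, n = 3) at day 5, 4.88% ± 0.0998 (SD, n = 2) at day 14 and 4.68% ± 0.017 (SD, n = 2) at day 28. In every library 9 of the genes stood among the 100 genes with the highest FPKM, and the 5 most abundant made up 61.7% to 65.3% of the lysosomal FPKM. Psap, which encodes the precursor of the saposins that help hydrolases reach their lipid substrates, led with 4273 to 5650 FPKM. The cathepsin genes Ctss, Ctsl, Ctsd and Ctsb followed with 1999 to 4203 FPKM, then Lgmn, Grn, Ctsz and Lamp1 with 742 to 2110 FPKM. The genes of lowest mean FPKM were Ctsf, Idua, Smpd1 and Arsa, at 3.16 to 16.2 FPKM. The spread between replicates was near that of other genes, and the coefficient of variation of FPKM within a day had a median over the 48 genes of 5.84% at day 5, 8.09% at day 14 and 8.12% at day 28, against 7.45%, 9.81% and 8.88% over all genes with a mean of at least 5 FPKM. Acp5 varied most at day 5 (27.5%), Ctsk at day 14 (51.3%) and Ctsf at day 28 (34.3%).

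**Figure D1:**
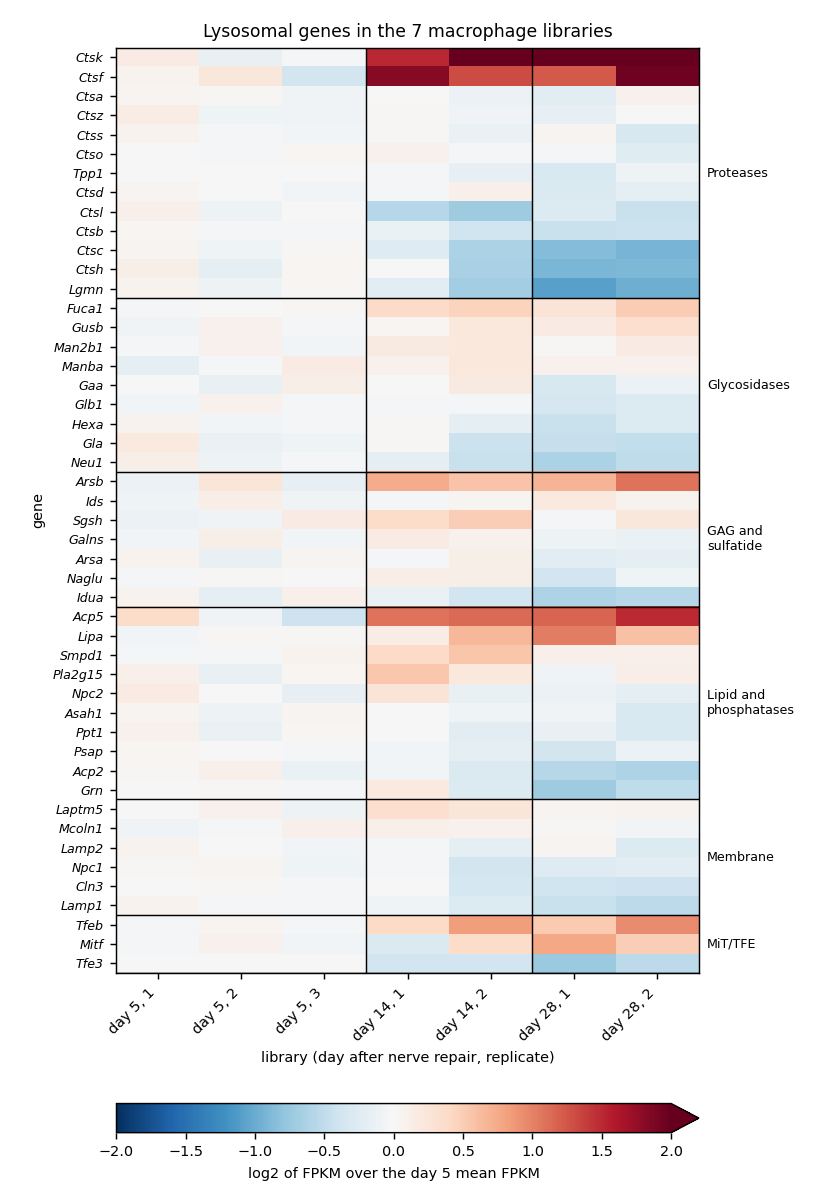
Each cell gives the log2 of the FPKM of a lysosomal gene (rows, grouped by role) in a library (columns) over the mean FPKM of the 3 day 5 libraries, with red for higher and blue for lower; values over 2 are drawn in the darkest red. Ctsk and Ctsf are red in all 4 libraries of days 14 and 28, while Lgmn, Ctsc and Ctsh are blue in both libraries of day 28.

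Between day 5 and day 28 the lysosomal genes split in both directions. At an edgeR adjusted p under 0.05 (quasi-likelihood test on fragment counts, Benjamini-Hochberg adjustment over the 12858 genes), 8 of the 48 genes were higher at day 28, against 7.74% of all genes tested, and 9 were lower, against 7.51%, so that 16.7% and 18.8% of the lysosomal genes were called. The list was chosen with earlier results of these data known, and the difference between these shares was not tested. The genes that rose were Ctsk, Ctsf, Acp5, Arsb, Lipa, Tfeb, Mitf and Fuca1, and those that fell were Lgmn, Ctsh, Ctsc, Tfe3, Grn, Idua, Acp2, Neu1 and Lamp1. The median log2 fold change of the 48 genes was -0.15, against 0.03 over all genes, and the median of its size was 0.25 against 0.31. In 33 of the 48 genes the FPKM of the day 28 libraries did not overlap those of day 5, against 51.5% of all genes. Each of the 5 libraries of days 5 and 28 bore on the count, which was 7, 10 and 8 without day 5 replicate 1, 2 or 3 and 6 and 7 without day 28 replicate 1 or 2. Ctsk, Ctsf, Acp5 and Ctsc kept their call in each of the 15 alternatives tried, and all 17 kept their direction in each of them.

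**Figure D2:**
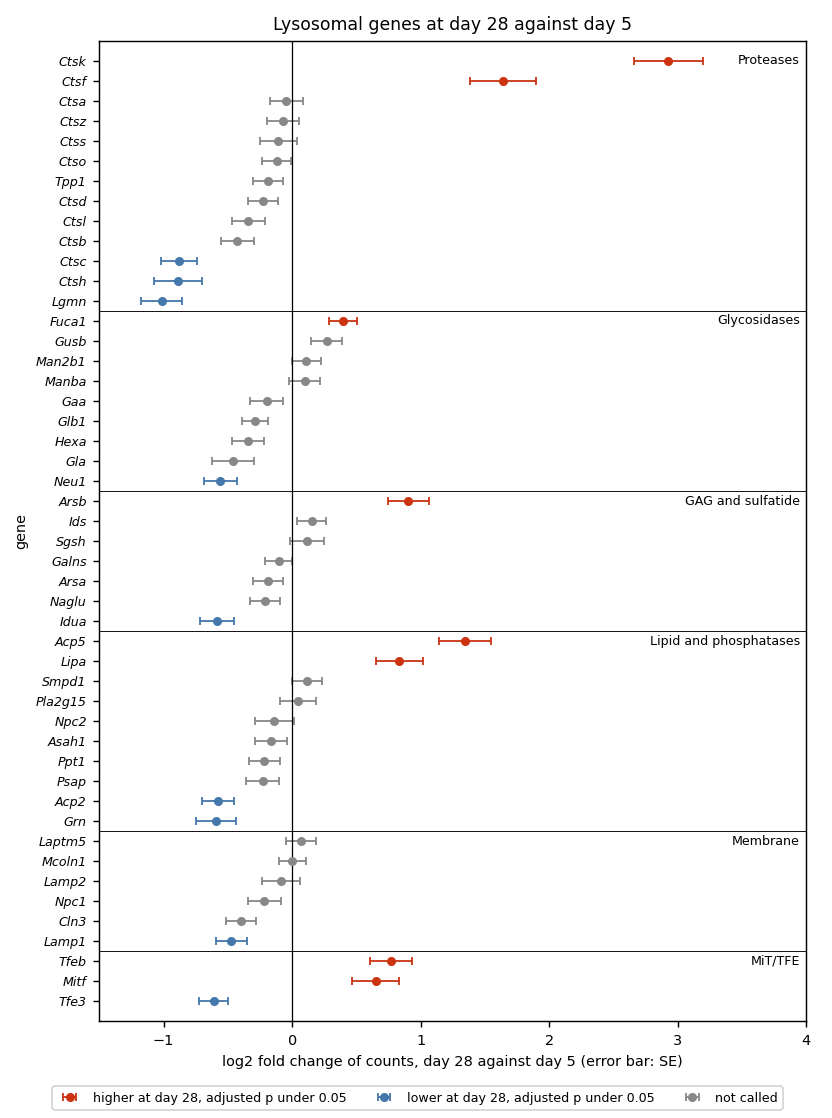
Log2 fold change of fragment counts at day 28 against day 5 (points, with the standard error as bars) for the 48 genes, grouped by role; red marks the 8 genes called higher, blue the 9 called lower, and grey the 31 not called. Each of the 6 groups holds at least 1 called gene, and the values run from -1.01 for Lgmn to 2.93 for Ctsk.

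By day 14, 4 genes had risen against day 5 (Ctsk, Ctsf, Acp5 and Smpd1; 2.84% of all genes tested rose) and 1 had fallen (Ctsl; 1.94% of all genes). The unadjusted p was under 0.05 in 16 of the 48, against 24.0% of all genes, and the median log2 fold change was 0.00 for the lysosomal genes and 0.03 for all genes. Between day 14 and day 28 no lysosomal gene was called by edgeR, against 0.0311% of all genes in each direction. Here 14 of the 48 genes had an unadjusted p under 0.05 (12.2% of all genes), the lowest adjusted p was 0.213 (Lgmn), and DESeq2 called Grn and Lgmn lower. The fold change was below 0 for 36 of the 48 genes in this step and above 0 for 12, with a median log2 value of -0.17 against 0.01 over all genes. The comparisons share libraries, so their values are given side by side and were not correlated. The test of whether the later step differed from the earlier one called no lysosomal gene by edgeR (0.00778% of all genes in each direction; 10 of the 48 at an unadjusted p under 0.05, against 12.6% of all genes; lowest adjusted p 0.192, for Smpd1), and DESeq2 called Ctsl.

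**Figure D3:**
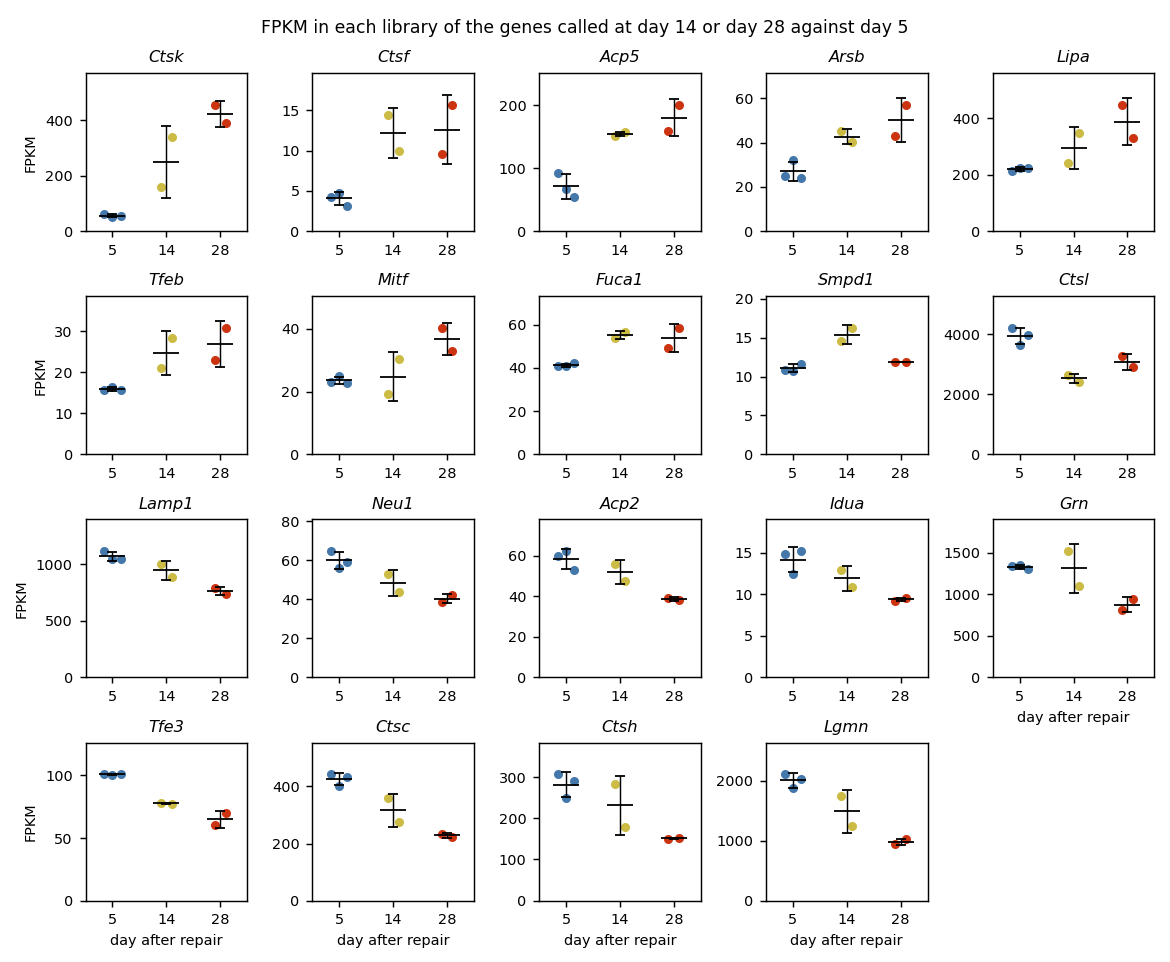
FPKM (vertical axes, from 0) of the 19 genes called at day 14 or day 28 against day 5, by day after repair; coloured points are libraries, and black bars give the mean and SD of a day. The first 8 panels hold the genes that rose by day 28 and the last 9 those that fell, with Smpd1 and Ctsl, called at day 14 alone, between them.

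Among the 13 proteases, 2 cathepsin genes rose by day 28 and 3 protease genes fell. Ctsk (chr3:95499256-95509362 on mm10), which encodes the cysteine protease cathepsin K, known for digesting collagen and elastin and for its role in osteoclasts, measured 62.8, 50.9 and 55.0 FPKM at day 5, 160 and 341 FPKM at day 14, and 456 and 390 FPKM at day 28. All libraries of the later days lay above those of day 5, and the pairs of days 14 and 28 did not overlap. Its counts were 4.49-fold higher at day 14 (log2 fold change 2.17 ± 0.27 SE, edgeR adjusted p = 0.00926) and 7.60-fold higher at day 28 (2.93 ± 0.27 SE, edgeR adjusted p = 0.000706) than at day 5. The day 14 value was 1.51 on the log2 scale without day 14 replicate 2 and 2.62 without replicate 1, and the call held in both cases. Over the alternatives its adjusted p ran from 3.53e-15 to 0.0802. Ctsf, the gene of the cysteine protease cathepsin F, measured 4.28, 4.76 and 3.16 FPKM at day 5, 14.4 and 10.02 FPKM at day 14, and 9.56 and 15.7 FPKM at day 28. Its later libraries lay above those of day 5 and overlapped each other. The log2 fold change was 1.59 ± 0.26 (SE) at day 14 and 1.64 ± 0.26 (SE) at day 28 (edgeR adjusted p = 0.0184 and 0.0048). The call at day 14 was lost without day 5 replicate 1 or 3 (adjusted p up to 0.0975 over the alternatives).

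Lgmn (chr12:102394084-102439813), which encodes legumain, an asparaginyl endopeptidase that also processes cathepsins, measured 2110, 1873 and 2033 FPKM at day 5, 1737 and 1238 FPKM at day 14, and 947 and 1019 FPKM at day 28. Each day lay below the one before it without overlap. Its counts at day 28 were 2.02-fold lower than at day 5 (log2 fold change -1.01 ± 0.16 SE, edgeR adjusted p = 0.00485). Ctsc, the gene of dipeptidyl peptidase I, which activates granule serine proteases, measured 443, 402 and 435 FPKM at day 5, 358 and 274 FPKM at day 14, and 235 and 223 FPKM at day 28. Its groups were also ordered without overlap (log2 fold change at day 28 against day 5 -0.88 ± 0.14 SE, edgeR adjusted p = 0.00501). Ctsh, the gene of the aminopeptidase cathepsin H, measured 308, 249 and 291 FPKM at day 5, 283 and 180 FPKM at day 14, and 150.4 and 152 FPKM at day 28. Day 14 replicate 1 lay within the day 5 range and replicate 2 under it, and both day 28 libraries were lower than all others (-0.89 ± 0.19 SE, edgeR adjusted p = 0.0155). Over the alternatives the adjusted p of Lgmn reached 0.0535, without day 28 replicate 1, and that of Ctsh 0.108, with its call lost without day 5 replicate 1 or 3 or without either day 28 library.

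Ctsl, which encodes cathepsin L, an abundant endopeptidase, was the 1 gene whose day 14 libraries lay under all libraries of both other days. It measured 4203, 3651 and 3959 FPKM at day 5, 2638 and 2407 FPKM at day 14, and 3271 and 2891 FPKM at day 28. None of the 3 groups overlapped. The log2 fold change was -0.63 ± 0.13 (SE) at day 14 (edgeR adjusted p = 0.0342), 0.29 ± 0.14 (SE) from day 14 to day 28 (edgeR adjusted p = 0.438) and -0.34 ± 0.13 (SE) between days 5 and 28 (edgeR adjusted p = 0.108). The call at day 14 was lost in both limma fits, with only those 2 time points fitted, and without any 1 of the 3 day 5 libraries or day 14 replicate 2 (adjusted p up to 0.109). An antisense gene and a processed pseudogene lie over exons of Ctsl. Since the use of strand in counting is not given in the sources used here, reads of the antisense gene cannot be told apart. The pseudogene lies on the same strand as Ctsl, so strand could not separate its reads in any case.

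Of the other proteases edgeR called none in any comparison. Ctsb, which encodes the broad-acting cathepsin B, measured between 2669 and 2812 FPKM at day 5, 2064 and 2490 FPKM at day 14 and 1999 and 2019 FPKM at day 28 (log2 fold change at day 28 -0.43 ± 0.13 SE, edgeR adjusted p = 0.053). It was called lower with DESeq2, with no expression filter, with only the 2 time points fitted and without either day 14 library. Its adjusted p ran from 0.00588 to 0.171 over the alternatives. Ctsd, which encodes the aspartic protease cathepsin D, measured between 2841 and 3051 FPKM at day 5, 2859 and 3152 FPKM at day 14 and 2414 and 2573 FPKM at day 28 (-0.23 ± 0.12 SE, edgeR adjusted p = 0.229). Ctss, which encodes cathepsin S, which trims the invariant chain in antigen presentation, measured between 3490 and 3806 FPKM at day 5, 3299 and 3686 FPKM at day 14, and 3757 and 2896 FPKM at day 28 (-0.11 ± 0.14 SE, edgeR adjusted p = 0.645). Day 28 replicate 1 of Ctss lay within the day 5 range and replicate 2 under it, and without day 28 replicate 2 its log2 fold change was 0.06. Ctsa, Ctso, Ctsz and Tpp1 had log2 fold changes of -0.05 to -0.19 at day 28.

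Levels of the cathepsins therefore changed places between the days, as the plot of cathepsin levels shows. In all 3 day 5 libraries Ctsl stood first among the 11 cathepsin genes, ahead of Ctss, while in the 4 later libraries Ctss stood first. Ctsk was 9th of 11 at day 5, 9th and 7th in the day 14 libraries, and 6th and 7th in those of day 28. Its FPKM exceeded those of Ctsc and Ctsh in day 14 replicate 2 and in both day 28 libraries. The lead of Ctss over Ctsl at day 28 was within the spread of its 2 libraries. Proteases made up 57.7% to 61.7% of the lysosomal FPKM in each library.

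**Figure D4:**
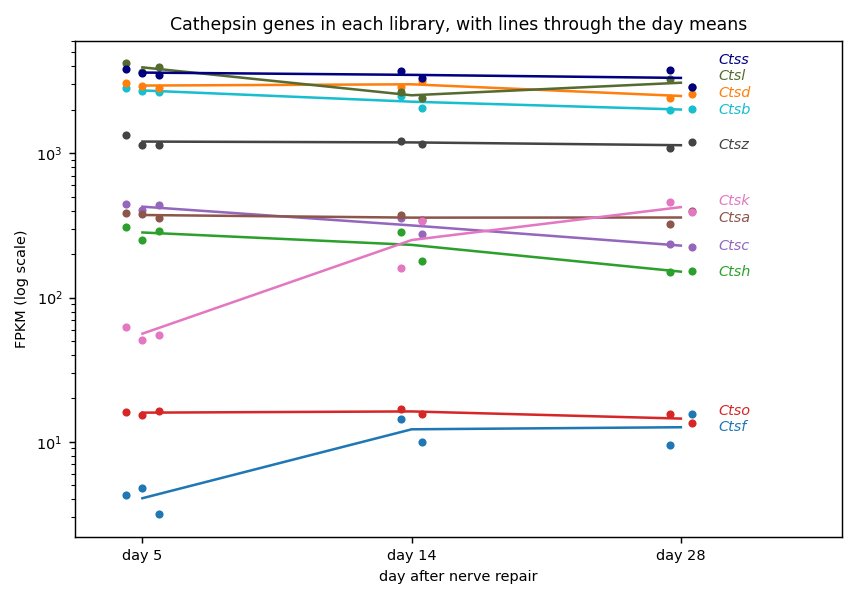
FPKM on a log scale of the 11 cathepsin genes at days 5, 14 and 28; points are libraries and lines join the day means. Ctsk climbs from 56.2 to 423 FPKM and crosses Ctsh, Ctsc and Ctsa, while Ctsb, Ctsd, Ctss and Ctsl stay between 1999 and 4203 FPKM.

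Genes of osteoclasts moved beside Ctsk and Acp5, whose products both mark that cell type. Of 8 osteoclast markers 6 were tested, and 3 had risen at day 14 and 4 at day 28, while Mmp9 had fallen at day 28 (log2 fold change -1.69, edgeR adjusted p = 0.00215). Atp6v0d2, a V-ATPase subunit, measured between 6.66 and 12.1 FPKM at day 5, 28.2 and 67.9 FPKM at day 14 and 118 and 101 FPKM at day 28 (3.67, edgeR adjusted p = 0.000809). Dcstamp, needed for the fusion of precursor cells, went from 0.37 to 1.14 FPKM at day 5 to 15.5 and 15.7 FPKM at day 28 (4.67, edgeR adjusted p = 0.000541). Calcr, the calcitonin receptor, had 0 fragments in every library, which allows up to 3 fragments in each, and Oscar had at most 5. The summed FPKM of the markers was 87.0 to 95.7 at day 5, 114 and 169 at day 14, and 183 and 188 at day 28. Without Atp6v0d2 the other 7 markers summed to 74.9 to 89.0 FPKM at day 5, 85.7 and 101 at day 14, and 70.0 and 82.3 at day 28. This sum was not higher at day 28, but it held genes that moved both ways. Ocstamp (log2 fold change 1.85, edgeR adjusted p = 0.00633) and Nfatc1 (0.76, edgeR adjusted p = 0.0102) were called higher, as was Dcstamp. Mmp9, the most abundant of these markers at day 5, went from a mean of 41.7 FPKM to 12.8 FPKM at day 28. Tnfrsf11a was not called (-0.30). Ctsk is also known from fibroblasts, whose markers summed to 29.2 to 74.6 FPKM at day 5, 82.2 and 224 at day 14 and 36.4 and 57.8 at day 28. The part of osteoclast or fibroblast RNA in the level of Ctsk was not tested.

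Of the 9 glycosidases, which remove sugars from glycoproteins and glycolipids, 1 rose and 1 fell by day 28. Fuca1, which encodes the enzyme that removes fucose, measured 40.6, 41.0 and 42.0 FPKM at day 5, 54.0 and 56.4 FPKM at day 14, and 49.1 and 58.4 FPKM at day 28. Both later days were above day 5 (log2 fold change at day 28 0.40 ± 0.11 SE, edgeR adjusted p = 0.0412; at day 14 0.43 ± 0.11 SE, edgeR adjusted p = 0.0562). Neu1, which encodes the sialidase that acts in a complex with the protein of Ctsa, measured 64.7, 56.0 and 58.9 FPKM at day 5, 53.0 and 43.8 FPKM at day 14, and 38.6 and 42.0 FPKM at day 28. Its 3 groups were ordered without overlap (-0.56 ± 0.13 SE, edgeR adjusted p = 0.0206). Both calls were lost without any 1 of the 5 libraries of days 5 and 28 (adjusted p up to 0.191 for Fuca1 and 0.133 for Neu1). The genes of further glycosidases, for gangliosides (Hexa), glycogen (Gaa), globosides (Gla), galactosides (Glb1), glucuronides (Gusb) and mannosides (Man2b1 and Manba), had log2 fold changes of -0.46 to 0.27 at day 28, none of them called by edgeR. DESeq2 called Gla and Hexa lower. Gla was also called with no expression filter, with only the 2 time points fitted and without either day 14 library.

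Among the 7 genes of glycosaminoglycan and sulfatide breakdown, Arsb rose and Idua fell by day 28. Arsb, which encodes arylsulfatase B, which acts on dermatan and chondroitin sulfate, measured 24.9, 32.0 and 24.0 FPKM at day 5, 45 and 40.2 FPKM at day 14, and 43.1 and 57.0 FPKM at day 28. All later libraries exceeded those of day 5 (log2 fold change at day 28 0.90 ± 0.16 SE, edgeR adjusted p = 0.00803; at day 14 0.67 ± 0.16 SE, edgeR adjusted p = 0.0501). Idua, which encodes the iduronidase that acts on dermatan and heparan sulfate, measured 14.8, 12.5 and 15.2 FPKM at day 5, 12.97 and 10.9 FPKM at day 14, and 9.25 and 9.49 FPKM at day 28. Its day 28 libraries lay under all others, while those of days 5 and 14 overlapped (-0.58 ± 0.13 SE, edgeR adjusted p = 0.0206). The call of Arsb was lost without day 28 replicate 2 (adjusted p up to 0.0579), and that of Idua without day 5 replicate 1 or 3 or either day 28 library (up to 0.122). Sgsh, which encodes a heparan sulfatase, stood higher at day 14 (30.3 and 32.9 FPKM) than at day 5 (21.7 to 26.2 FPKM) and day 28 (22.9 and 27.4 FPKM), with edgeR adjusted p of 0.0802 and 0.404 for these steps. It was called at day 14 against day 5 with DESeq2 and with no expression filter. Galns, Ids, Naglu and Arsa had log2 fold changes of -0.21 to 0.15 at day 28. Arsa, which encodes the enzyme that degrades the myelin lipid sulfatide, measured between 12.96 and 15.03 FPKM at day 5, 14.0 and 15.5 FPKM at day 14 and 12.2 and 12.7 FPKM at day 28.

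The 10 genes of lipid breakdown, lipid transfer and phosphatases held 2 that rose and 2 that fell by day 28. Acp5 (chr9:22126727-22135711), which encodes tartrate-resistant acid phosphatase, measured 92.5, 67.7 and 53.8 FPKM at day 5, 152 and 157 FPKM at day 14, and 159 and 201 FPKM at day 28. The 3 groups did not overlap, and counts were 2.17-fold higher at day 14 and 2.54-fold higher at day 28 than at day 5 (log2 fold change 1.12 ± 0.20 and 1.34 ± 0.20 SE, edgeR adjusted p = 0.0219 and 0.00413). Without day 5 replicate 2 or 3 the call at day 14 was lost (adjusted p up to 0.1 over the alternatives). Lipa, which encodes lysosomal acid lipase, which frees cholesterol and fatty acids from engulfed lipids, measured 212, 224 and 223 FPKM at day 5, 243 and 348 FPKM at day 14, and 447 and 328 FPKM at day 28. Every later library was above day 5, and days 14 and 28 overlapped (0.83 ± 0.18 SE at day 28, edgeR adjusted p = 0.0171). Acp2, which encodes the lysosomal acid phosphatase, measured 59.8, 62.4 and 53.3 FPKM at day 5, 56.1 and 47.7 FPKM at day 14, and 39.5 and 38.1 FPKM at day 28. Only its day 28 libraries stood apart from day 5 (-0.58 ± 0.12 SE, edgeR adjusted p = 0.0167). Grn, which encodes progranulin, a secreted and lysosomal glycoprotein needed for normal lysosome function, measured 1338, 1351 and 1307 FPKM at day 5, 1523 and 1103 FPKM at day 14, and 812 and 940 FPKM at day 28. The day 14 libraries lay on both sides of day 5, and those of day 28 under all others (-0.59 ± 0.15 SE, edgeR adjusted p = 0.0328). Leaving out any 1 of the 5 libraries of days 5 and 28 took away the call of Grn (adjusted p up to 0.186), any day 5 library or day 28 replicate 1 that of Lipa (up to 0.148), and day 5 replicate 1 or 2 or either day 28 library that of Acp2 (up to 0.0831). Of the exons of Acp2, 652 bases also belong to exons of Ddb2 on the other strand, and such shared stretches measured 249 bases for Lamp1, 141 for Idua and 68 for Grn, so that counts of these genes may hold reads of their neighbours. The same holds for Arsb, whose exons overlap a lincRNA and a further noncoding gene on the other strand, and for Acp5, with 137 bases shared with a noncoding transcript. In genes that edgeR did not call, the longest stretches shared with a protein-coding gene measured 955 bases for Sgsh, 808 for Ctsd and 774 for Ctsb. They measured 511 bases for Npc1, 495 for Ctsa and 442 for Cln3.

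Smpd1, which encodes acid sphingomyelinase, was called at day 14 alone. It measured 10.9, 10.8 and 11.6 FPKM at day 5, 14.5 and 16.2 FPKM at day 14, and 11.9 and 11.9 FPKM at day 28. Both day 14 libraries were above the other 5 (log2 fold change against day 5 0.48 ± 0.12 SE, edgeR adjusted p = 0.0497), but the call was kept in 3 of 15 alternatives and was lost without any 1 of 6 libraries, day 14 replicate 1 being the exception (adjusted p up to 0.248). Psap measured between 5398 and 5650 FPKM at day 5, 4813 and 5305 FPKM at day 14, and 4273 and 5060 FPKM at day 28 (log2 fold change at day 28 -0.23 ± 0.13 SE, edgeR adjusted p = 0.256). Npc2, whose product hands cholesterol to NPC1 in the lysosome wall, measured between 278 and 346 FPKM at day 5, 371 and 281 FPKM at day 14, and 287 and 271 FPKM at day 28 (-0.14 ± 0.15 SE, edgeR adjusted p = 0.571). Asah1 (acid ceramidase), Ppt1 (a thioesterase) and Pla2g15 (a phospholipase) had log2 fold changes of -0.17, -0.22 and 0.05 at day 28.

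Of the 6 genes of membrane proteins, edgeR called Lamp1 alone. Lamp1, which encodes an abundant glycoprotein of the lysosome wall and the usual marker of the organelle, measured 1118, 1049 and 1044 FPKM at day 5, 1004 and 889.8 FPKM at day 14, and 787 and 742 FPKM at day 28. Its groups were ordered without overlap, and counts at day 28 were 1.39-fold lower than at day 5 (log2 fold change -0.47 ± 0.12 SE, edgeR adjusted p = 0.0296). The call was lost without any 1 of the 5 libraries of those days (adjusted p up to 0.102). Its partner Lamp2 measured between 283 and 310 FPKM at day 5, 291 and 259 FPKM at day 14, and 308 and 243 FPKM at day 28, with 1 day 28 library within the day 5 range and the other under it (-0.09 ± 0.15 SE, edgeR adjusted p = 0.724). Npc1, which encodes the sterol transporter, measured between 57.5 and 63.3 FPKM at day 5, 60.1 and 47.3 FPKM at day 14, and 51.1 and 52.8 FPKM at day 28 (-0.22 ± 0.13 SE, edgeR adjusted p = 0.283). Cln3, lost in a childhood lysosomal storage disease, measured between 45.8 and 47.5 FPKM at day 5 and 35.3 and 34.9 FPKM at day 28, with an edgeR adjusted p of 0.0515. It was called lower with DESeq2, with RLE or Cuffdiff scaling, with no expression filter, with limma on log2(FPKM + 1), with only the 2 time points fitted and without either day 14 library. Mcoln1, which encodes a lysosomal calcium channel, and Laptm5 had log2 fold changes of 0.00 and 0.07 at day 28.

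The 3 genes of MiT/TFE transcription factors on the list differed between days 5 and 28, in both directions. Tfeb, whose product is held in the cytoplasm by mTORC1 and enters the nucleus under starvation or lysosomal stress, measured 15.5, 16.5 and 15.7 FPKM at day 5, 20.9 and 28.4 FPKM at day 14, and 23.0 and 30.8 FPKM at day 28. The later libraries were all above day 5 and overlapped each other (log2 fold change at day 28 0.77 ± 0.16 SE, edgeR adjusted p = 0.0155). Mitf, which encodes the factor that with TFE3 drives genes of osteoclasts, measured 23.0, 24.9 and 22.8 FPKM at day 5, 19.3 and 30.3 FPKM at day 14, and 40.3 and 33.1 FPKM at day 28. Its day 14 libraries fell on both sides of day 5, and those of day 28 exceeded all others (0.65 ± 0.18 SE, edgeR adjusted p = 0.0411). Tfe3 measured 101, 101 and 101 FPKM at day 5, 77.7 and 77.6 FPKM at day 14, and 60.2 and 69.9 FPKM at day 28. Its 3 groups were ordered without overlap (-0.61 ± 0.12 SE, edgeR adjusted p = 0.0096). At day 28 Tfe3 still had the highest FPKM of the 3 genes in both libraries. The call of Mitf was lost in both limma fits and without any 1 of the 5 libraries of days 5 and 28 (adjusted p up to 0.246), that of Tfeb without day 5 replicate 1 or 3 or day 28 replicate 2 (up to 0.0981), and that of Tfe3 without day 28 replicate 1 (up to 0.0788). These are transcript levels, and neither the amount nor the location of the proteins was measured.

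The day 14 libraries stood apart from each other in these genes. For the 17 genes called between days 5 and 28, the position of each day 14 library was computed on log2(FPKM + 0.1) values, with 0 at the day 5 mean and 1 at the day 28 mean. Replicate 1 had a median position of 0.28 and lay nearer day 5 for 10 of the 17 genes. Replicate 2 had a median of 0.71 and lay nearer day 28 for 15 of the 17. Replicate 2 was further towards day 28 than replicate 1 for 15 of the 17 genes (88.2%), as it was for 80.4% of all 1960 genes called between those days, where the medians were 0.43 and 0.78. For Ctsh, Grn and Mitf, replicate 1 was at or beyond the day 5 mean, at -0.01, -0.32 and -0.45. Calls that involve day 14 moved with these libraries: without replicate 1, 11 lysosomal genes were called against day 5, and without replicate 2, 6 were called between days 14 and 28 (Ctsk and Mitf higher and Lgmn, Ctsc, Ctsh and Grn lower at day 28).

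In 1 of the 48 genes (2.08%), Ctsl, both day 14 libraries stood under the other 5, against 5.58% of all genes tested. In 6 (12.5%) both stood above them, against 6.63% of all genes. These 6 were singled out after their values were seen: Smpd1 and Sgsh, described above, with Laptm5, Pla2g15, Man2b1 and Naglu. Laptm5, which encodes a lysosomal membrane protein of blood cells, measured 469 to 538 FPKM at day 5, then 635 and 599 FPKM, then 523 and 529 FPKM at day 28 (edgeR adjusted p = 0.161 and 0.514 for the 2 steps). Pla2g15 measured 70.4 to 83.6 FPKM at day 5, then 114 and 90.9 FPKM, then 74.7 and 85.6 FPKM (edgeR adjusted p = 0.122 and 0.399).

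**Figure D5:**
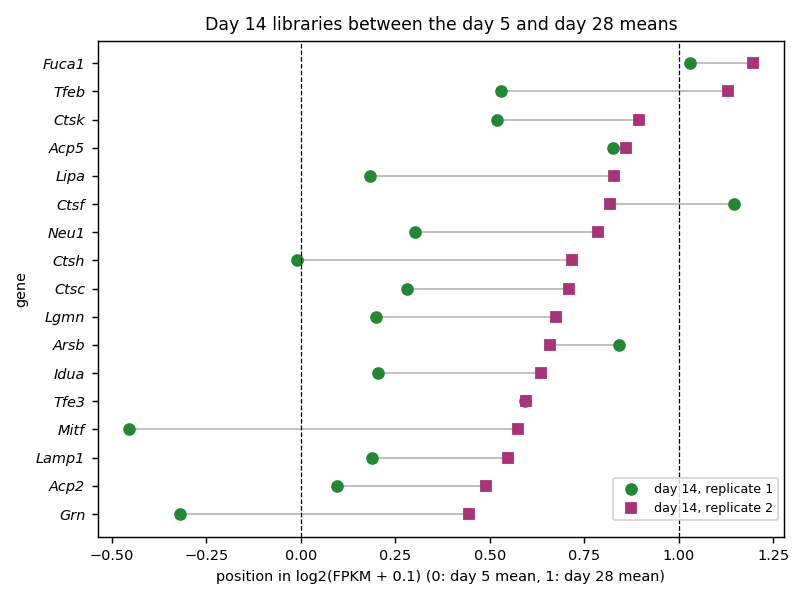
Position of the 2 day 14 libraries (circles, replicate 1; squares, replicate 2) between the day 5 mean (0) and the day 28 mean (1) of log2(FPKM + 0.1), for the 17 genes called between days 5 and 28. Squares lie to the right of circles for all genes but Ctsf and Arsb.

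Further genes of the pathway, from lists of other lysosomal proteins, were counted in the same fit, to be read against the 7.74% of all genes that rose and the 7.51% that fell. Of 37 other lysosomal enzymes, activators and membrane proteins, 6 were higher and 8 lower at day 28 than at day 5. Hgsnat, which encodes an acetyltransferase of heparan sulfate breakdown, fell from 37.8 to 38.8 FPKM at day 5 to 16.0 and 19.5 FPKM at day 28 (log2 fold change -1.10 ± 0.13 SE, edgeR adjusted p = 0.00155), and Hyal1, which encodes a hyaluronidase, from 15.5 to 16.7 FPKM to 6.22 and 4.89 FPKM (-1.52 ± 0.22 SE, edgeR adjusted p = 0.00332). Cd63, which encodes a tetraspanin of late endosomes and lysosomes, rose from 605 to 705 FPKM to 1232 and 1067 FPKM (0.86 ± 0.13 SE, edgeR adjusted p = 0.00357). Of 19 V-ATPase subunits, Atp6v0d2 alone was called. Among 20 genes that sort proteins to the lysosome, 2 were higher and 2 lower, near those shares. They included Gnptab, which encodes the enzyme that makes the mannose 6-phosphate tag, measuring between 20.9 and 26.5 FPKM at day 5 and 41.9 and 36.9 FPKM at day 28 (0.76 ± 0.15 SE, edgeR adjusted p = 0.0103). Sort1, which encodes the receptor sortilin, went from 6.57 to 7.99 FPKM to 16.6 and 16.2 FPKM (1.22 ± 0.25 SE, edgeR adjusted p = 0.0133), and Ap1b1, which encodes an adaptor that packs cargo at the Golgi, from 79.9 to 92.8 FPKM to 45.6 and 55.9 FPKM (-0.75 ± 0.14 SE, edgeR adjusted p = 0.0082). None of 8 cathepsin inhibitor genes tested was called at day 14 or day 28 against day 5. Of 21 genes through which mTORC1 and its partners control TFEB, 1 rose: Rragd, which encodes a lysosomal GTPase, measuring between 1.06 and 1.94 FPKM at day 5 and 3.81 and 3.11 FPKM at day 28 (1.34 ± 0.25 SE, edgeR adjusted p = 0.00953).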

How the data were processed

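RNASeq of 7 macrophage libraries (3 at day 5, 2 at day 14, 2 at day 28) was re-analysed. Single-end reads had been trimmed by the authors (cutadapt 1.8), mapped to mm10 (TopHat2 2.0.13) and quantified per gene (Cuffdiff 2.2.1), as named in the paper's methods and the submitters' processing notes. They deposited expected counts (the estimated number of fragments of a gene), of which 0.947% were not whole within 1e-06. The deposited scaled signal is that count after Cuffdiff's library scaling and was used in 1 alternative. FPKM values, computed by the authors from scaled fragments and transcript length, gave levels and plots. No value of the 48 genes carried a failed quantification status.

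Expected counts were rounded and fitted with edgeR 4.0.16 in R 4.3.3 (TMM, filterByExpr, quasi-likelihood test, p-values adjusted over 12858 genes by the Benjamini-Hochberg method), with the 7 libraries together, time as the only factor and 4 residual degrees of freedom. Contrasts were day 14 vs day 5, day 28 vs day 14, day 28 vs day 5 and the difference between the 2 steps. Standard errors were taken from the log2 fold change and the F value and are approximate. The tests were checked on simulated counts with planted day 28 changes of size 2 on the log2 scale. Every gene was given the same relative spread between replicates. These changes were larger than those of most lysosomal genes called here, so the check does not bear on smaller ones.

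The genes and lists were chosen with earlier results of these data known. Values per library are given for every lysosomal gene called in any contrast and for 16 always shown, and of each further list for up to 3 called genes of lowest adjusted p. Sequences and starts are from RefSeq, gene positions from GENCODE on GRCm38. Alternatives were DESeq2 1.42.0, RLE and Cuffdiff scaling, no expression filter, limma 3.58.1 on log2(FPKM + 1) and log2(FPKM + 0.1), only the 2 time points compared, a replicate block, and leaving out each library. Python 3.11.15, pandas 2.3.3 and matplotlib 3.10.9 were used for counts and plots. One exclusion marker of the sort, and the marker list that holds it, are not reported here.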

Additional observations from a re-analysis of the deposited data

How the results depend on the processing

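For day 28 against day 5, 17 lysosomal genes were called and the other tests, scalings and filters gave 16 to 22. Leaving out single libraries gave 6 to 20. For day 14 against day 5, 5 were called, 11 with DESeq2, 9 with no expression filter, 3 with limma on log2(FPKM + 1), 3 with limma on log2(FPKM + 0.1), 3 with only the 2 time points fitted, and 1 to 11 without single libraries. For day 28 against day 14, 0 were called, 2 with DESeq2 and 0 to 6 without single libraries. For the difference between the 2 steps, 0 were called, 1 with DESeq2 (Ctsl), 2 with no expression filter (Ctsf and Ctsk) and 0 to 1 without single libraries, the 1 being Ctsk without day 14 replicate 1. Without a library of day 14 or day 28 the remaining library was assumed to vary like the others. Of 465 alternative fold changes of the genes shown by library, 373 kept their direction and side of the threshold, 84 lost a call, 6 gained one and 2 changed sign. These were Ctss (-0.312 to 0.0621 over the fits without 1 library) and Lamp2 (-0.305 to 0.0956), both without day 28 replicate 2. The cause was not tested.

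When replicate numbers were fitted as a block, 0 genes were called at day 14 against day 5, 9 at day 28 against day 5 (Fuca1, Grn, Idua, Lamp1, Lipa, Mitf, Neu1 and Tfe3 lost their call), 0 at day 28 against day 14 and 0 for the difference between the 2 steps. Libraries of different days came from different mice. Whether same-numbered libraries shared a surgery, sort or sequencing run is not given in the sources used here. Over 7613 genes the deviations of same-numbered libraries correlated at 0.175 and 0.0449 (days 5 and 14), 0.0842 and 0.0249 (days 5 and 28) and -0.0538 (days 14 and 28). The 2 deviations of day 14 mirror each other, as do those of day 28, so these values cannot show or exclude a shared run. The block leaves 2 residual degrees of freedom, and day 5 replicate 3, alone in its block, then adds nothing to the comparisons.

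With 2 libraries at days 14 and 28, differences near the size of their spread were not detectable. Genes that overlap others, or share reads with near-identical copies, are uncertain, since the use of strand and of multiply mapped reads is not given in the sources used here.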
